A study of Mus musculus with 12 samples.

Results

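Cbl, Cblb, Rnf128 and Itch, which encode ubiquitin ligases tied to T cell anergy, and Dgka and Dgkz, which encode diacylglycerol kinases, were followed through an RNA-seq series of mouse regulatory T cells (Treg). The genes were picked by symbol, and each of the 6 symbols matched 1 identifier among the 36222 genes measured. Treg were sorted as CD4+ YFP+ cells from spleens of individual mice carrying a Foxp3-YFP-Cre reporter and driver, so that both genotypes express the Cre in cells that transcribe Foxp3. Wild-type (WT) Treg had no floxed allele named beside that reporter, and Ikzf1 cKO Treg came from mice that were also Ikzf1 fl/fl, in which the gene for the zinc finger protein Ikaros is deleted in the Treg lineage. RNA was taken either straight after sorting (ex vivo) or after 4 h on plate-bound anti-CD3 and anti-CD28 at 1 ug/ml each (stimulated). Each of the 4 groups held 3 libraries, the mice of the ex vivo groups were age-matched at 6 to 8 weeks on a B6 background, and whether the stimulated and ex vivo libraries of a genotype shared mice was not stated.

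Anergy is the state in which a T cell that has met antigen without costimulation stops responding, and Treg are themselves hyporesponsive to antigen receptor signals in culture. The ligases act by attaching ubiquitin to signalling proteins next to the T cell receptor (TCR). Cbl and Cblb are RING-type ligases that bind phosphorylated receptors and kinases, and T cells without Cblb no longer depend on CD28 costimulation. Rnf128, also called GRAIL, is a RING-type ligase in endosomal membranes that is induced in anergic T cells, and Itch is a HECT-type ligase of the Nedd4 family whose known targets include JunB. The diacylglycerol kinases turn diacylglycerol, the second messenger that recruits RasGRP1 and protein kinase C theta, into phosphatidic acid and so end that signal, and excess of either kinase is known to push T cells toward anergy.

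Libraries held 8208659 to 20247649 assigned reads. A single locus, Gm10800, took from 17.7% to 55.9% of the summed level of a library, with means of 26.0% ± 12.1 in WT and 22.9% ± 2.17 in cKO libraries ex vivo, and of 38.1% ± 5.93 in WT and 48.8% ± 6.58 in cKO libraries after stimulation (SD, n = 3 each). The deposited TPM values (reads per length of gene as a share of the library's total) were therefore divided by a factor for each library from the trimmed mean of M-values (TMM), and levels below are these scaled TPM unless deposited TPM are named. Without the factors, the median change of all tested genes moved to 0.21, -0.30, 0.18, -0.31 and -0.52 on the log2 scale for genotype ex vivo, genotype after stimulation, stimulation in WT, stimulation in cKO and the interaction. Changes were tested with limma on log2(scaled TPM + 1) over the 13318 genes that reached 5 TPM in some group, with Benjamini-Hochberg adjustment over all of them, and a gene was called at an adjusted p under 0.05. Ikzf1 fell from 111 ± 6.03 to 38.0 ± 5.06 scaled TPM ex vivo (SD, n = 3, limma adjusted p = 8.6e-05) and from 68.6 ± 2.62 to 27.5 ± 3.95 after stimulation (limma adjusted p = 0.00021), in the direction of the genotype labels. The Treg markers Foxp3, Il2ra and Ctla4 were present in all groups. After stimulation Foxp3 and Il2ra were higher in cKO than in WT Treg (log2 difference 0.95 and 0.80, limma adjusted p = 0.010 and 0.012, each called in 10 of 12 fits that left out 1 library). Foxp3 fell with stimulation in WT (-0.69, limma adjusted p = 0.013). Of 7 Treg markers, stimulation called 5 in WT (1 higher, 4 lower) and 6 in cKO Treg (2 higher, 4 lower). Of all tested genes 31.3% and 43.2% were called. Ctla4 fell (log2 change -1.88 and -1.40) and Tnfrsf18 rose (0.77 and 0.56). The part of these differences in the results was not tested. Of 4 activation markers, Myc rose with stimulation in both genotypes (log2 change 0.58 and 0.62) while Cd69 fell (-1.38 and -1.73), and of the other two, Nr4a1 fell in WT (-0.57, limma adjusted p = 0.031) and Egr1 in cKO Treg (-0.71, limma adjusted p = 0.037), each called in 7 of 12 fits that left out 1 library. Nr4a1 in cKO and Egr1 in WT were not called (0.14 and -0.60). Every stimulation contrast below is thus against freshly sorted cells in which 3 of 4 activation markers were higher in at least 1 genotype, and the part of that baseline in the results was not tested. The library WT ex vivo 3 alone had the female transcript Xist at 179 deposited TPM against 0.624 to 1.36 in the other 11 libraries. The male transcript Ddx3y was at 0.097 deposited TPM in it and at 14.7 to 52.8 in the other 11. By these transcripts it came from a female mouse and the others from males, so it shared no mouse with a stimulated WT library. The summed deposited level of 4 B cell markers was 16.1 to 21.95 TPM in cKO ex vivo against 9.49 to 12.7 TPM in WT ex vivo libraries, and 12.5 to 16.9 against 8.65 to 13.6 TPM after stimulation. Cd79b, the 1 of these markers that was tested, averaged 11.9 deposited TPM in cKO and 5.94 in WT libraries ex vivo (log2 difference 0.70 in scaled TPM, limma adjusted p = 0.12). After stimulation it averaged 6.99 and 4.08 and was called higher in cKO Treg (0.96, limma adjusted p = 0.030, called in 7 of 12 fits that left out 1 library). Ms4a1 averaged 1.37 against 1.07 deposited TPM ex vivo and 2.58 against 1.29 after stimulation, cKO first. The part of this marker difference in the genotype results was not tested. Sums for 4 myeloid, 2 CD8 T cell, 2 NK cell and 3 erythroid markers stayed at or under 16.3 deposited TPM in every library. In sorted bulk cells, fewer cells that express a gene and less RNA of it per cell cannot be told apart.

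Promoter sequences are shown for the kinases, which both fell with stimulation, and for Cblb, which rose. Each is the 250 bases before the RefSeq start that lies nearest to the gene's annotated start, taken from the GRCm38.p6 table and printed 5′ to 3′ on the gene's own strand. Capitals mark GGGAA or its reverse complement TTCCC, the core of the Ikaros motif. The Dgka window is chr10:128744077-128744326 on the minus strand, the Dgkz window chr2:91963564-91963813 on the minus strand and the Cblb window chr16:52031299-52031548 on the plus strand.
Dgka: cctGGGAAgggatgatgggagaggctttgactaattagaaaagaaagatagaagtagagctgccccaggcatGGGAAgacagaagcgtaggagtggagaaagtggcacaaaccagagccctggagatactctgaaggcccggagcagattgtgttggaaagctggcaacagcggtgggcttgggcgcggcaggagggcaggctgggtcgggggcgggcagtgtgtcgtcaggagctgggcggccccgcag
Dgkz: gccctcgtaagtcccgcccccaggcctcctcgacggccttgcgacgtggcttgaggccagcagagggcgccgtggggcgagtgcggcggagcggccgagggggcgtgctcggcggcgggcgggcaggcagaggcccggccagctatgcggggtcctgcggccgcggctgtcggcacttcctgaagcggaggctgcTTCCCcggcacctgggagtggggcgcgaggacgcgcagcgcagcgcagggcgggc
Cblb: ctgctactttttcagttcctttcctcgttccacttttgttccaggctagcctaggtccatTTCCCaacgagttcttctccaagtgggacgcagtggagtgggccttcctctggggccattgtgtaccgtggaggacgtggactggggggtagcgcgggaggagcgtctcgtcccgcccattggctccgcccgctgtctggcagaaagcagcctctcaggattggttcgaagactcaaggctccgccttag

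The core was found 2 times in the Dgka window and 1 time in each of the Dgkz and Cblb windows printed above. The other RefSeq starts of Dgka and Dgkz held 0, the Rnf128 window held 1 and the Cbl window 0, and Itch was not matched. These counts are a description only, since 56.2% of all 32851 RefSeq windows of this length held the core on one strand or the other. An AP-1 motif (TGANTCA, in 6.75% of all windows) and a forkhead motif (TGTTTAC, in 3.17%), searched on both strands, were in none of the RefSeq windows of the 5 genes matched. In the build of the deposited data (mm9) the same sequences matched exactly 1 place each, chr10:128181133-128181382, chr2:91803721-91803970 and chr16:52031412-52031661. The Cblb window ends at the annotated gene start, the Dgka window's RefSeq start lies 20 bases upstream of it, and the nearest RefSeq start of Dgkz lies 12301 bases inside the annotated gene.

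Counting the 5 genes tested, 1 was called for genotype ex vivo (Dgka, lower), where 4.9% of all tested genes were called. After stimulation 2 were called for genotype (Dgka and Dgkz, lower), against 6.2% of all tested genes. Stimulation changed 4 of the 5 in WT Treg, where 31.3% of tested genes were called, and 4 of the 5 in cKO Treg, where 43.2% were called. In both genotypes these were Cblb, which rose, and Cbl, Dgka and Dgkz, which fell. The stimulation counts stand against a broad change of the transcriptome and the controls of one comparison are the treated cells of another. The median log2 change of the 5 genes was -0.05, -0.35, -0.53 and -0.65 in these comparisons, where the median of all tested genes was -0.02, -0.04, -0.02 and -0.03.

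The order of the levels differed between ex vivo and stimulated Treg. TPM are per length of transcript, so levels can be set side by side between genes. In WT ex vivo Treg, Dgka stood highest at 384 ± 17.3 scaled TPM, followed by Dgkz at 93.2 ± 6.36, Cblb at 80.4 ± 24.4, Cbl at 72.4 ± 9.18, Itch at 13.9 ± 1.21 and Rnf128 at 1.60 ± 0.841 (SD, n = 3). Dgkz overlapped with Cblb and Cblb with Cbl, and the other neighbours in that order were apart. The cKO ex vivo libraries gave the same order with the same overlaps, from Dgka at 278.5 ± 21.7 to Rnf128 at 1.14 ± 0.259 scaled TPM. After stimulation of WT Treg, Cblb took the second place with 197 ± 13.0 scaled TPM behind Dgka with 259 ± 22.1, and Dgkz and Cbl overlapped at 49.96 ± 0.239 and 49.6 ± 4.70. In stimulated cKO Treg, Cblb was the highest of the 6 at 199 ± 37.6 scaled TPM, above Dgka at 126 ± 12.7, and no neighbouring ranges overlapped.

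**Figure D1:**
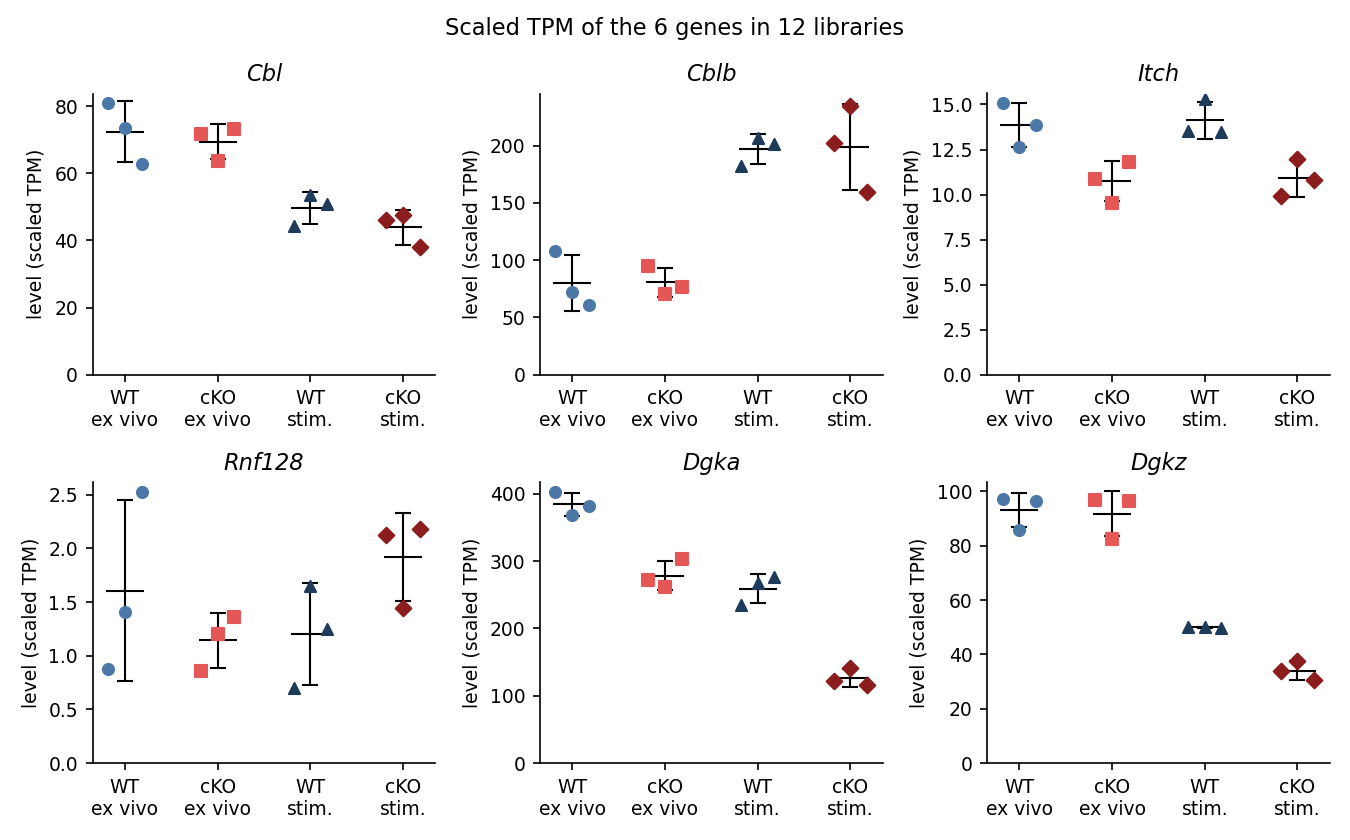
Level of each gene in scaled TPM (y axis, from 0, a different scale in each panel) in the 12 libraries by group on the x axis. Points are libraries and bars show the mean ± SD of 3. Dgka and Dgkz are lowest in the 3 cKO stimulated libraries, Cblb is high in all 6 stimulated libraries, and Rnf128 stays under 2.6 scaled TPM throughout.

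Cblb (ENSMUSG00000022637, chr16:52031662-52208160, plus strand in mm9) rose with stimulation in both genotypes and was not called between them. WT ex vivo libraries had 108, 72.6 and 60.8 scaled TPM and cKO ex vivo libraries 95.02, 70.4 and 76.6. After stimulation the WT libraries had 182, 207 and 202 scaled TPM and the cKO libraries 202, 235 and 160. All 6 stimulated libraries were above all 6 ex vivo libraries, and within each condition the genotypes overlapped. The rise was 1.32 on the log2 scale in WT (SE 0.21, limma adjusted p = 0.00068) and 1.29 in cKO Treg (SE 0.21, limma adjusted p = 0.00065), or 2.50-fold and 2.44-fold. Between genotypes the log2 difference was 0.04 ex vivo (95% interval -0.42 to 0.49) and 0.00 after stimulation (-0.45 to 0.45). The rise was called in 20 of 22 alternative settings in each genotype, the exceptions being the filter at 1 TPM and no filter (limma adjusted p = 0.075 in WT and 0.13 in cKO under both).

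Cbl (ENSMUSG00000034342, chr9:43957345-44042129, minus strand), the closest relative of Cblb in the set, moved the opposite way with stimulation. Ex vivo, its scaled TPM were 81.1, 73.4 and 62.8 in WT libraries and 71.6, 63.6 and 73.1 in cKO libraries. After stimulation they were 44.4, 53.6 and 50.8 in WT libraries and 46.0, 47.7 and 38.1 in cKO libraries. Every stimulated library lay below every ex vivo library, and the genotypes overlapped in both conditions. Cbl fell by 0.53 on the log2 scale in WT (SE 0.12, limma adjusted p = 0.0071) and by 0.65 in cKO Treg (SE 0.12, limma adjusted p = 0.0018). In deposited TPM, the WT groups overlapped and the fall in WT was not called (log2 change -0.32, limma adjusted p = 0.36), nor was it with the lower filters or quantile normalization (limma adjusted p from 0.093 to 0.24). The fall in cKO Treg was lost under quantile normalization alone (log2 change -0.17, limma adjusted p = 0.21). The genotype differences were -0.05 ex vivo (95% interval -0.32 to 0.22) and -0.17 after stimulation (-0.44 to 0.10), neither called.

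The ratio of Cblb to Cbl within a library does not depend on how libraries are scaled. It was 1.10 ± 0.203 in WT ex vivo and 1.16 ± 0.148 in cKO ex vivo libraries (SD, n = 3), and 3.98 ± 0.122 in WT and 4.51 ± 0.372 in cKO stimulated libraries. The lowest stimulated library, at 3.86, was above the highest ex vivo library, at 1.33. The rise was 3.67-fold in WT and 3.90-fold in cKO Treg, and the stimulated cKO libraries (4.20 to 4.92) lay above the stimulated WT libraries (3.86 to 4.10) by 1.13-fold. For each of these comparisons the exact permutation test, two-sided, gave p = 0.1, below which 3 against 3 libraries cannot go, or 0.114 adjusted over the 8 ratio comparisons made. Ex vivo, the genotypes overlapped (exact permutation p = 0.6).

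**Figure D2:**
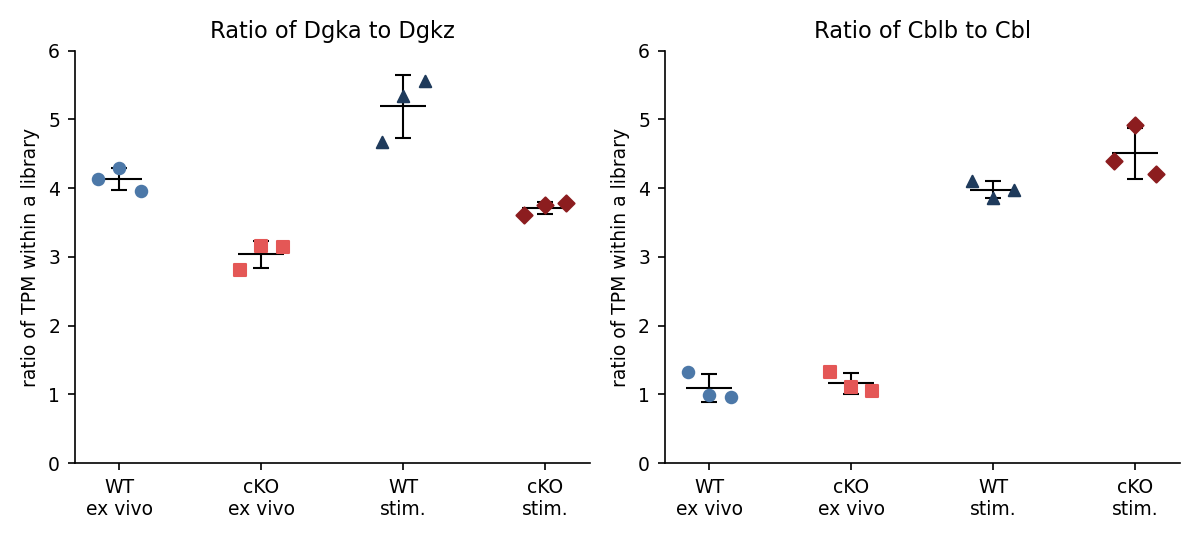
Ratio of Dgka to Dgkz (left) and of Cblb to Cbl (right), in TPM within each library (y axis, from 0), by group on the x axis, with points for libraries and bars for the mean ± SD of 3. The Dgka to Dgkz ratio is lower in cKO than in WT libraries in both conditions without overlap, and the Cblb to Cbl ratio goes from about 1 ex vivo to between 3.86 and 4.92 after stimulation.

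Itch (ENSMUSG00000027598, chr2:154959245-155052591, plus strand) was a low-level gene with lower values in both cKO groups that did not pass the test, and it was not called for stimulation. WT ex vivo libraries had 15.1, 12.6 and 13.9 scaled TPM against 10.9, 9.55 and 11.8 in cKO ex vivo, and WT stimulated libraries 13.6, 15.3 and 13.5 against 9.94, 11.97 and 10.8 in cKO stimulated. The 6 cKO libraries were all below the 6 WT libraries in scaled TPM, whereas in deposited TPM the ex vivo groups overlapped. The log2 difference was -0.34 ex vivo (SE 0.10, limma adjusted p = 0.096) and -0.35 after stimulation (SE 0.10, limma adjusted p = 0.075). With limma voom on the recovered reads both differences were called (adjusted p = 0.033 and 0.028), quantile normalization called the one after stimulation (limma adjusted p = 0.024), and none of the 12 fits that left out 1 library called either. Stimulation changed Itch by 0.03 (95% interval -0.20 to 0.25) in WT and 0.02 (-0.21 to 0.25) in cKO Treg.

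Rnf128 (ENSMUSG00000031438, chrX:136097855-136207684, plus strand) rested on 19 to 108 reads per library and was not tested, since it stayed under 5 TPM in every group. Ex vivo, its deposited levels were 0.956, 1.13 and 2.34 TPM in WT libraries and 0.890, 1.43 and 1.502 in cKO libraries. After stimulation they were 0.791, 1.53 and 1.53 TPM in WT libraries and 2.28, 1.29 and 1.62 in cKO libraries. The means were 1.48 and 1.27 TPM ex vivo and 1.28 and 1.73 after stimulation, WT first. For 1398 olfactory and vomeronasal receptor genes, which T cells do not use, the 90th percentile of the group means was 1.30 and 1.55 deposited TPM ex vivo and 1.73 and 1.78 after stimulation, in the same order. The mean of Rnf128 was below that percentile in all groups but WT ex vivo, where WT ex vivo 3 alone was above it. The 2 settings with lower filters that held Rnf128 called no change (limma adjusted p from 0.519 to 0.990).

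Dgka (ENSMUSG00000025357, chr10:128157197-128181112, minus strand) was the gene of the set that differed most between genotypes after stimulation. WT ex vivo libraries had 403, 369 and 382 scaled TPM and cKO ex vivo libraries 272, 261 and 303. WT stimulated libraries had 234, 267 and 276 scaled TPM and cKO stimulated libraries 122, 141 and 116. The genotypes did not overlap in either condition, nor did the conditions in either genotype. In deposited TPM, stimulated cKO libraries (86.2 to 131) also stayed below stimulated WT libraries (249.3 to 336), but the ex vivo genotypes overlapped (282 to 333.1 against 296 to 438), as did the WT conditions.

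After stimulation, Dgka was 2.04-fold lower in cKO than in WT Treg (log2 change -1.03, SE 0.11, limma adjusted p = 0.00037). All 12 fits that left out 1 library called it, and of the other 10 settings only the filter at 1 TPM and no filter did not (limma adjusted p = 0.061 and 0.065, log2 change -1.33 in both). Ex vivo, Dgka was 1.38-fold lower in cKO Treg (log2 change -0.47, SE 0.11, limma adjusted p = 0.033). This call was made in 7 of 22 alternatives, with adjusted p from 0.017 to 0.82 and a negative change in all of them. It was lost without any 1 of the 6 ex vivo libraries, and also without WT stimulated 2, WT stimulated 3 or cKO stimulated 1 (limma adjusted p from 0.0515 to 0.105 in these 9 fits). Without WT ex vivo 3, the Xist library, the change was -0.47 with a limma adjusted p of 0.077.

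Dgkz (ENSMUSG00000040479, chr2:91772981-91816021, minus strand) was not called between genotypes ex vivo and was lower in cKO Treg after stimulation. Its scaled TPM were 97.3, 85.8 and 96.3 in WT ex vivo and 96.8, 82.5 and 96.3 in cKO ex vivo libraries. After stimulation they were 50.1, 50.1 and 49.7 in WT and 33.9, 37.5 and 30.8 in cKO libraries. The stimulated genotypes did not overlap, in scaled or deposited TPM. The difference after stimulation was 1.46-fold (log2 change -0.54, SE 0.10, limma adjusted p = 0.0078). It was called in all 12 fits that left out 1 library, and it was not called with the filter at 1 TPM, no filter or deposited TPM (limma adjusted p = 0.23, 0.22 and 0.064). Ex vivo the log2 difference was -0.02 with a 95% interval from -0.24 to 0.19.

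Both kinases fell with stimulation in both genotypes. Dgkz fell by 0.88 on the log2 scale in WT (SE 0.10, limma adjusted p = 6.9e-05) and by 1.41 in cKO Treg (SE 0.10, limma adjusted p = 3.7e-06). Dgka fell by 0.57 in WT (SE 0.11, limma adjusted p = 0.0023) and by 1.13 in cKO Treg (SE 0.11, limma adjusted p = 2.1e-05). The falls in cKO Treg were called in all 22 alternatives. In WT, the direction for Dgka depended on the scaling, with -0.35 in deposited TPM (limma adjusted p = 0.31) and 0.24 under quantile normalization (limma adjusted p = 0.093). The fall of Dgka in WT was also not called with the filter at 1 TPM or no filter. Dgkz in WT stayed negative in each alternative, from -1.12 to -0.48, and missed the threshold in deposited TPM alone (limma adjusted p = 0.055).

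Whether the response to stimulation differed between genotypes was tested with the interaction term, which called 0 of the 5 genes with limma against 0.916% of all tested genes. At an unadjusted p under 0.05 there were 2 genes (1827 of all 13318), and limma voom called 0 (395 of all). Dgka fell more in cKO than in WT Treg by 0.57 (SE 0.15, limma adjusted p = 0.12), and Dgkz by 0.52 (SE 0.14, limma adjusted p = 0.12). Over the alternatives the limma adjusted p ran from 0.040 to 0.69 for Dgka and from 0.0064 to 0.69 for Dgkz, with a negative value in each. Both were called only under quantile normalization, which called 392 of all tested genes. For Cblb, Itch and Cbl the interaction was -0.04, 0.00 and -0.12, with 95% intervals from -0.67 to 0.60, -0.33 to 0.32 and -0.50 to 0.26.

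**Figure D3:**
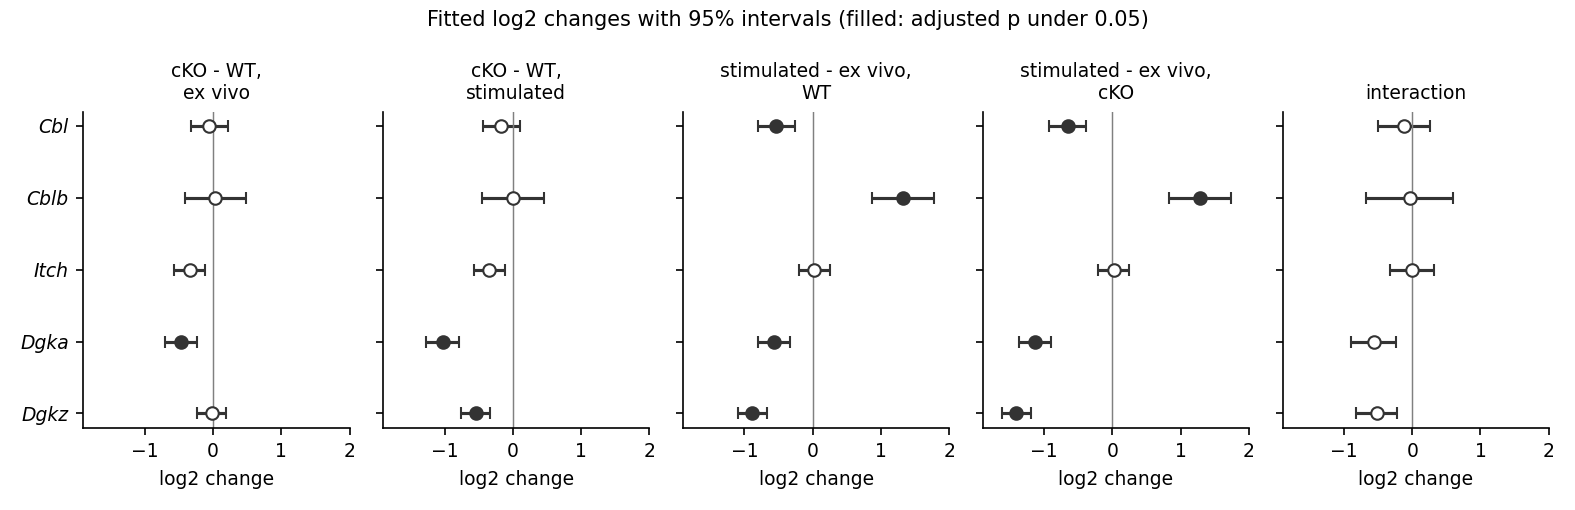
Fitted log2 change (x axis) of the 5 tested genes in 5 panels, for genotype ex vivo, genotype after stimulation, stimulation in WT, stimulation in cKO and the interaction. Points are limma estimates, bars 95% intervals, and filled points have an adjusted p under 0.05. The 2 filled genotype points after stimulation are Dgka and Dgkz, Cblb has the one filled point to the right of 0 with stimulation in each genotype, and no interaction point is filled.

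Over the 22 alternatives, Dgka after stimulation ran from -1.33 to -0.87 and ex vivo from -0.53 to -0.22 on the log2 scale. Dgkz after stimulation ran from -0.83 to -0.42, and ex vivo from -0.08 to 0.22, on both sides of 0.

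**Figure D4:**
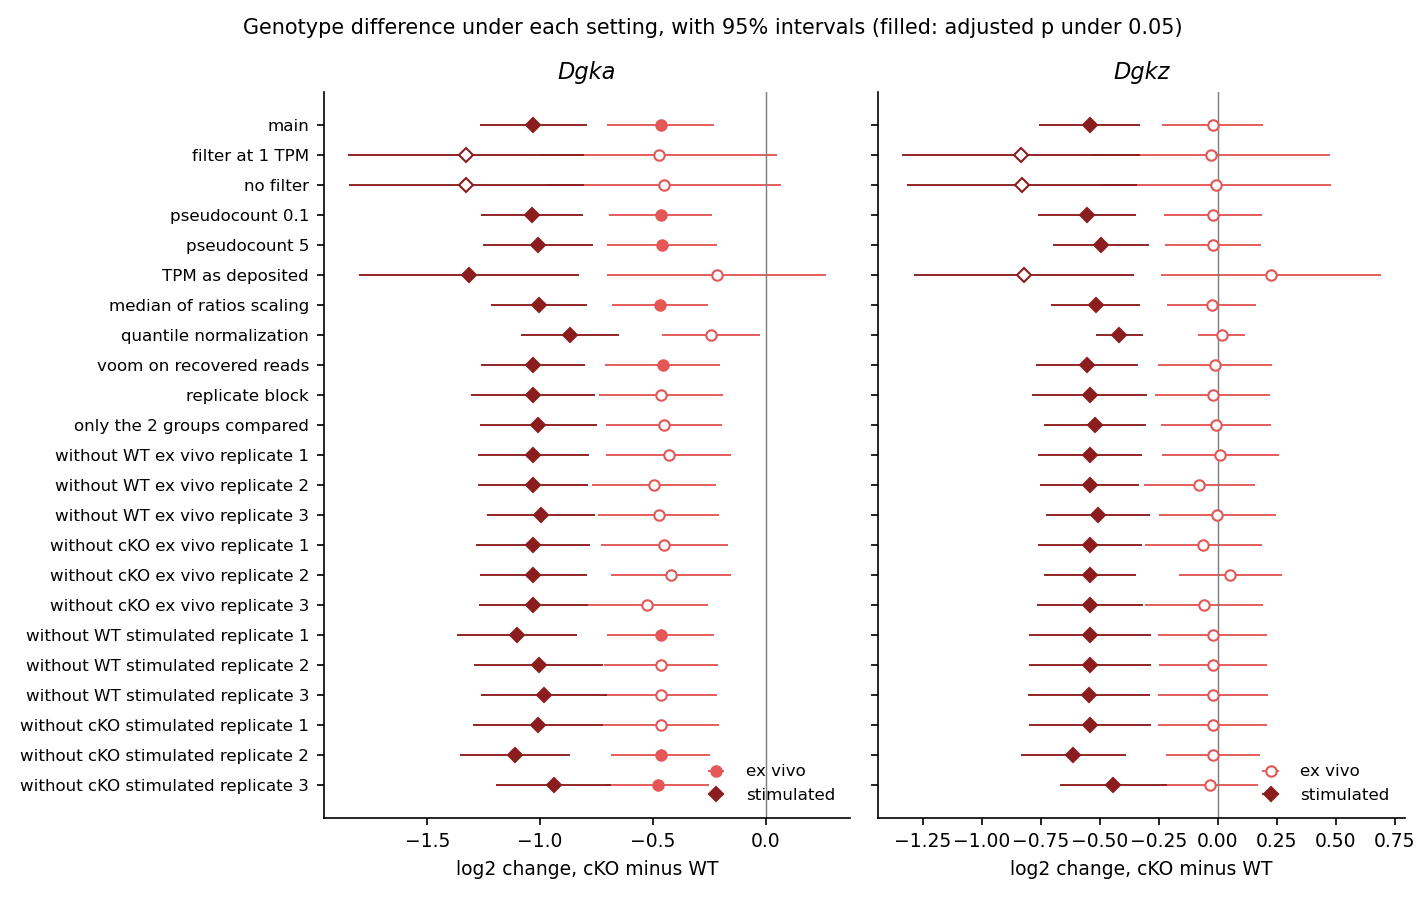
Log2 difference between cKO and WT Treg (x axis) for Dgka (left) and Dgkz (right) under the main setting and 22 alternatives (y axis), ex vivo as circles and stimulated as diamonds, with 95% intervals and filled symbols for an adjusted p under 0.05. The stimulated difference of Dgka is negative in each setting, while its ex vivo symbol is filled in the main setting and 7 alternatives.

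In both conditions every cKO library had a lower ratio of Dgka to Dgkz than every WT library. Ex vivo the ratio of TPM was 4.13 ± 0.165 in WT and 3.04 ± 0.200 in cKO libraries (SD, n = 3). After stimulation it was 5.19 ± 0.460 in WT and 3.71 ± 0.0925 in cKO libraries. The cKO libraries spanned 2.81 to 3.16 ex vivo and 3.61 to 3.78 after stimulation, and the WT libraries 3.96 to 4.29 and 4.68 to 5.56. No groups overlapped in any of the 4 comparisons. The ratio was 1.36-fold lower in cKO Treg ex vivo and 1.39-fold lower after stimulation, and it rose with stimulation by 1.25-fold in WT and 1.22-fold in cKO Treg. The exact permutation p was again 0.1 in each comparison, or 0.114 adjusted over the 8, so none can pass 0.05 with 3 libraries a group. The direction was the same in each alternative, leaving out any 1 library included.

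Dgka and Dgkz made up most of the diacylglycerol kinase message. Of the summed TPM of 10 kinase genes they took 70.8% to 86.2% in each library, and Dgka alone took 68.5% ± 0.543 in WT and 63.4% ± 2.02 in cKO libraries ex vivo, and 70.2% ± 1.78 and 57.7% ± 1.98 after stimulation. The sum over the 10 genes was 154 to 230 deposited TPM in cKO stimulated libraries and 356 to 645 in the other 9 libraries. These sums were not divided by the TMM factors, and the mean share of Gm10800 was largest in the cKO stimulated group. The size of the gap can therefore not be read from them. Of the 8 other kinases, Dgkd, Dgke, Dgkh and Dgkq reached 5 TPM and were tested, and Dgkb, Dgkg, Dgki and Dgkk averaged at most 4.26 deposited TPM in any group.

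**Figure D5:**
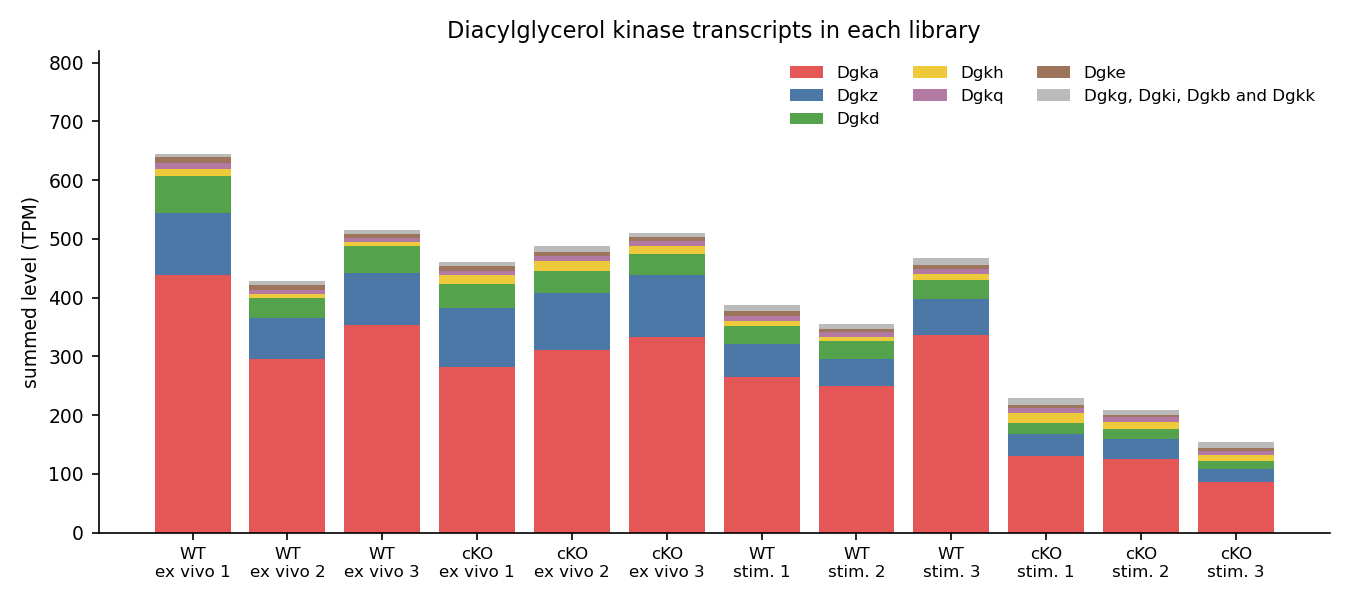
Summed deposited TPM (y axis, from 0) of 10 diacylglycerol kinase genes in each of the 12 libraries (x axis), stacked by gene. The TPM were not divided by the TMM factors. Dgka is the tallest segment in every bar, and the 3 cKO stimulated bars, at 154 to 230 TPM, are the shortest.

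Among those kinases, 1 of 4 was called for genotype ex vivo (Dgkd, lower) and 2 of 4 after stimulation (Dgkd lower, Dgkh higher), beside 4.9% and 6.2% of all tested genes. Dgkd, next in level, had 49.8 ± 7.79 scaled TPM in WT and 34.3 ± 4.62 in cKO ex vivo libraries, and 28.4 ± 3.24 and 18.4 ± 1.42 after stimulation (SD, n = 3). Its genotype differences were -0.52 ex vivo (limma adjusted p = 0.0498, called in 2 of 12 fits that left out 1 library) and -0.59 after stimulation (limma adjusted p = 0.025, called in 8 of 12). Dgkd also fell with stimulation, by 0.78 in WT and 0.86 in cKO Treg (limma adjusted p = 0.0012 and 0.00055). Dgkh went the other way from Dgka, with 8.24 ± 0.291 scaled TPM in WT and 14.5 ± 2.00 in cKO stimulated libraries, a log2 difference of 0.73 (limma adjusted p = 0.0034, called in 12 of 12). Ex vivo its difference was 0.41 (limma adjusted p = 0.064). The stimulated genotypes did not overlap for Dgkh, at 7.99 to 8.56 and 12.7 to 16.6 scaled TPM.

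Other ligases, adaptors and deubiquitinases linked to the 4 ligases or to T cell tolerance were not called between genotypes. Of 19 genes 17 were tested and limma called 0 for genotype in either condition, where 4.9% of all tested genes were called ex vivo and 6.2% after stimulation. There were 3 at an unadjusted p under 0.05 ex vivo and 5 after stimulation (2328 and 3084 of all 13318 genes). Limma voom called 2 and 0 (1203 and 1247 of all), and quantile normalization 0 and 1 (673 and 1579 of all). Stimulation changed 8 of the 17 in each genotype, where 31.3% of all tested genes were called in WT and 43.2% in cKO Treg. In WT 6 of the 8 fell and in cKO Treg 7 of the 8. Dtx1, a Notch-linked ligase known as an anergy gene, fell from 82.6 ± 9.92 to 5.75 ± 0.987 scaled TPM in WT and from 85.2 ± 5.84 to 7.77 ± 0.294 in cKO Treg (log2 change -3.63 and -3.30, limma adjusted p = 7.5e-08 and 1.6e-07). Smurf2, a HECT-type ligase like Itch, fell by 0.65 and 0.72, and Peli1, a ligase that limits T cell activation, by 0.56 and 0.37, the latter called in 7 of 12 fits that left out 1 library. Rc3h2, a relative of the RNA-binding ligase Roquin, rose by 0.58 in WT and 0.38 in cKO Treg (limma adjusted p = 0.00046 and 0.0049). Ndfip1, the adaptor that activates Itch, was at 192 ± 29.1 in WT and 185 ± 24.6 scaled TPM in cKO Treg ex vivo, and at 221 ± 8.23 and 193 ± 20.6 after stimulation, and was called in no comparison, while its relative Ndfip2 fell with stimulation by 0.45 and 0.59.

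Around the kinases and the ligase targets, 27 of 28 genes were tested. For genotype, 3 were called ex vivo and 2 after stimulation, beside 4.9% and 6.2% of all tested genes. After stimulation, limma voom called 8 of the 27 (1247 of all 13318 genes), quantile normalization 9 (1579 of all), and 14 had an unadjusted p under 0.05 (3084 of all). Ex vivo Lpin1, a phosphatidic acid phosphatase that makes diacylglycerol, was higher in cKO Treg (39.6 ± 4.43 against 24.2 ± 3.04 scaled TPM, log2 change 0.69, limma adjusted p = 0.0050). Jun was lower (log2 change -1.29, limma adjusted p = 0.0079), and Rasgrp2 was lower by a margin called in 2 of 12 fits that left out 1 library (log2 change -0.53, limma adjusted p = 0.0498). After stimulation the TCR-proximal kinases Lck and Zap70 were lower in cKO Treg (log2 change -0.43 and -0.46, limma adjusted p = 0.035 and 0.048, called in 6 and 2 of 12 such fits). Rasgrp1, the Ras activator that diacylglycerol recruits, was not called for genotype in either condition (log2 difference -0.37 ex vivo and -0.08 after stimulation, limma adjusted p = 0.15 and 0.73). With stimulation 15 were called in WT (4 higher, 11 lower) and 13 in cKO Treg (2 higher, 11 lower), beside 31.3% and 43.2% of all tested genes. Junb, a target of Itch, fell from 2458 ± 416 to 286 ± 36.9 scaled TPM in WT and from 1892 ± 171 to 305 ± 58.5 in cKO Treg. Prkcq, which encodes protein kinase C theta, fell by 0.81 and 0.93.

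Of 14 other genes tied to anergy, all were tested. Genotype called 5 ex vivo, 4 of them higher in cKO Treg (Lag3, Nfatc1 and Pdcd1 among them) and Nr4a1 lower, and 1 after stimulation, Lag3, higher. Of all tested genes 4.9% and 6.2% were called. After stimulation, limma voom called 2 of the 14 (1247 of all 13318 genes) and quantile normalization 4 (1579 of all). Lag3, an inhibitory receptor, had 39.2 ± 1.10 scaled TPM in cKO and 17.3 ± 2.26 in WT ex vivo libraries (log2 change 1.15, limma adjusted p = 0.00036). The Pdcd1, Nr4a1 and Nfatc1 calls were made in 2, 6 and 8 of 12 fits that left out 1 library. Stimulation called 12 of 14 in each genotype, 3 higher and 9 lower, beside the same 31.3% and 43.2% of all tested genes. The 3 higher in each were Egr2, Egr3 and Pdcd1. Egr2 and Egr3, zinc finger factors known to induce Cblb, rose with it, Egr2 from 19.1 ± 3.47 to 53.8 ± 3.61 scaled TPM in WT and from 21.6 ± 1.99 to 54.7 ± 10.3 in cKO Treg (log2 change 1.46 and 1.29, limma adjusted p = 6.2e-05 and 0.00011). Egr3 rose by 1.68 and 1.40, and like Cblb neither was called for genotype. The part of Egr2 and Egr3 in the rise of Cblb was not tested.

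Foxo proteins are known to activate Dgka transcription, and 7 of 7 genes linked to Foxo factors in resting T cells were tested. For genotype, 2 were lower in cKO Treg ex vivo, Klf2 among them, and 3 after stimulation, S1pr1 and Il7r among them, with 0 higher in either, beside calls in either direction for 4.9% and 6.2% of all tested genes. Limma voom called 4 and 6 of the 7, and 1203 and 1247 of all 13318 genes. Foxo1 and Foxo3 themselves were not called for genotype ex vivo (log2 difference 0.02 and -0.13, limma adjusted p = 0.98 and 0.63) or after stimulation (-0.51 and -0.12, limma adjusted p = 0.096 and 0.54). Klf2, a factor of quiescent T cells, had 1511 ± 289 scaled TPM in WT and 549 ± 64.6 in cKO ex vivo libraries (SD, n = 3, log2 change -1.45, limma adjusted p = 0.00065). S1pr1, the receptor that guides T cells out of lymphoid organs, had 133 ± 21.1 scaled TPM in WT and 54.8 ± 7.25 in cKO stimulated libraries (log2 change -1.27, limma adjusted p = 0.0026). The Il7r call was made in 5 of 12 fits that left out 1 library. With stimulation 4 of 7 fell in WT and 7 of 7 in cKO Treg, beside calls in either direction for 31.3% and 43.2% of all tested genes. The median log2 genotype change of the 7 was -0.58 ex vivo and -0.54 after stimulation, beside -0.02 and -0.04 for all tested genes. The part of Foxo factors in the Dgka levels was not tested.

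Across the 12 libraries, log2 levels of Dgka and Dgkz had a Pearson r of 0.89, Cbl and Dgkz of 0.94 and Cbl and Cblb of -0.75, as a description of points that share 4 groups. Itch followed none of the others closely, with r from 0.13 to 0.56. Among all tested genes, those with the pattern most like Dgkz over the 12 libraries were Rbm38, Cd28 and Lbh (r from 0.996 to 0.997), and those most like Dgka included Tspan32 (r = 0.985) and B4galnt1 (r = 0.973). The nearest to Cblb were Epb4.1, Sos1 and Clasp2 (r from 0.979 to 0.982). For Cbl they were Vps13a, Ift80 and Ttc39b (r from 0.981 to 0.986), and for Itch Pcm1, Kpna4 and Ttc3 (r from 0.925 to 0.954).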

How the data were processed

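Total RNA of 12 libraries was depleted of ribosomal RNA, and per the labels and the study's methods 51-base paired reads were aligned with STAR 2.6.0c to mm9 and counted on exons, on the reverse strand, with HTSeq 0.6.1. The deposited signal per gene and library is TPM, from which the authors removed ribosomal RNA genes, beside a deposited log2 column equal to log2 of TPM plus the value of 1 read. Whole reads were recovered from the pair, 99.9977% of values within 0.01 of a whole number. The authors' own table of comparisons holds fold changes and p-values and was not used.

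TPM were divided by TMM factors (trims of 30% and 5%) and tested with limma 3.58.1 in R 4.3.3, on log2 of scaled TPM plus a pseudocount of 1, over genes with a group mean of at least 5 TPM, all 12 libraries in 1 fit of group means, with Benjamini-Hochberg adjustment at 0.05. The fit was tested on simulated data. Ratios within libraries were compared by exact two-sided permutation of 3 against 3 libraries. Alternatives were a filter at 1 TPM or none, other pseudocounts, other scalings, voom on the recovered reads, a block, fits of 2 groups and leaving out each library. Libraries held 8208659 to 20247649 assigned reads, and the 5 tested genes at least 556 reads each in every library. The members and the gene lists were chosen with earlier results of these data known. Genes other than members were named from those lists, by role and by whether they were called, and those most like each member, up to 3, were named by Pearson r over 12 libraries. Values of some listed genes are not reported here, and the lists' counts include them. Promoters are from the RefSeq table of GRCm38.p6.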

Additional observations from a re-analysis of the deposited data

Results flagged for a closer look

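In 2 genes of the lists above, the response to stimulation differed between genotypes by the interaction term of the limma fit. For Jun, the response in cKO minus that in WT was 1.89 on the log2 scale (limma adjusted p = 0.021), with genotype differences of -1.29 ex vivo and 0.60 after stimulation. For Lpin1 it was -0.96 (limma adjusted p = 0.019), with genotype differences of 0.69 and -0.27. These calls were made in 8 and 9 of 12 fits that left out 1 library, and without cKO stimulated 1 the limma adjusted p was 0.066 and 0.062.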

How the results depend on the processing

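For genotype ex vivo, the 1 call among the 5 tested genes became 0 with the filter at 1 TPM, no filter, deposited TPM, quantile normalization, the replicate block and only the 2 groups compared, and 2 under voom, and it ranged from 0 to 1 over fits without 1 library. For genotype after stimulation, 2 calls became 0 with the filter at 1 TPM, 0 with no filter and 1 in deposited TPM, and 3 under voom and under quantile normalization. For stimulation in WT, 4 calls became 1 with the filter at 1 TPM, no filter and deposited TPM, and 2 under quantile normalization, which also made 2 interaction calls. The cause was not tested. The correlation of residuals was over 0.1 in 2 of 18 pairs of same-numbered libraries (-0.21 to 0.26) and in 5 of 36 other pairs (-0.19 to 0.22). These correlations cannot show whether same-numbered libraries shared a mouse or a batch. With the replicate block the limma adjusted p of Dgka ex vivo was 0.079.

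Signs that turned were all of uncalled values or of Dgka in WT. Cblb between genotypes after stimulation, at 0.00 in the main fit, ran from -0.30 to 0.18 over the alternatives. Ex vivo, deposited TPM gave 0.19 for Cbl and 0.22 for Dgkz between genotypes, and quantile normalization 0.017 for Dgkz. With stimulation, Itch was at -0.20 and -0.17 in WT and -0.46 and -0.45 in cKO Treg with the filter at 1 TPM and none, and -0.26 in cKO Treg in deposited TPM, while Dgka in WT was at 0.24 under quantile normalization. The interaction was 0.0002 for Cbl and 0.089 for Cblb under quantile normalization, and 0.023 for Itch under median of ratios scaling. Without 1 library, genotype ex vivo ranged from -0.16 to 0.030 for Cbl, -0.15 to 0.26 for Cblb and -0.079 to 0.054 for Dgkz, stimulation of Itch from -0.034 to 0.084 in WT and -0.053 to 0.085 in cKO, the interaction from -0.20 to 0.024 for Cbl, -0.26 to 0.18 for Cblb and -0.079 to 0.059 for Itch, and the log2 Cblb to Cbl ratio between genotypes ex vivo from -0.0099 to 0.24.

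Over all genes, 652, 826, 4174, 5759 and 122 were called for genotype ex vivo, genotype after stimulation, stimulation in WT, stimulation in cKO and the interaction. Without 1 library they ranged from 280 to 685, 379 to 931, 3151 to 4319, 4073 to 5878 and 32 to 178. The lowest were without cKO ex vivo 3 for genotype ex vivo (334, 320 and 427 without WT ex vivo 3, cKO ex vivo 1 and cKO ex vivo 2), without WT stimulated 2 or cKO stimulated 1 for genotype after stimulation (518 and 418 without WT stimulated 1 and 3), and without cKO stimulated 1 for the interaction (39 to 81 without WT ex vivo 2 or 3, cKO ex vivo 1 or 3 or any 1 WT stimulated library). The counts were 57, 66, 1837, 5901 and 0 at 1 TPM (2402 interactions at an unadjusted p under 0.05), 273, 306, 1943, 4674 and 67 in deposited TPM, 673, 1579, 3983, 5201 and 392 under quantile normalization, 1203, 1247, 4872, 6239 and 395 under voom, and 440, 548, 3797, 5359 and 41 with the replicate block. Without a filter the first 3 and the last were 56, 68, 1694 and 0, and with only the 2 groups the first 2 were 352 and 515. Higher and lower calls were 441 and 211, 412 and 414, 1510 and 2664, 2171 and 3588, and 55 and 67, against 260 and 13, 69 and 237, 1175 and 768, 558 and 4116, and 6 and 61 in deposited TPM, and quantile normalization gave 2062 and 1921 for stimulation in WT. Rnf128 rested on 19 to 108 reads per library.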
